A study of Homo sapiens with 6 samples.

Results

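The genes described here encode the nuclear subunits of the mitochondrial respiratory chain and of ATP synthase, followed in 2 human leukemia lines. Members were taken by symbol: every gene whose single array symbol began with NDUFA, NDUFB, NDUFC, NDUFS, NDUFV, UQCR, ATP5, COX4, COX5, COX6, COX7 or COX8, together with SDHB, SDHC, SDHD and CYC1. Of 97 matching symbols, 4 pseudogenes and 7 NDUFAF assembly factors were left out, which left 86 members of the 22320 genes measured. Among the members, 81 encode subunits: 34 of complex I, 3 of complex II, 9 of complex III, 19 of complex IV and 16 of complex V, the ATP synthase. The other 5 (ATP5S, ATP5SL, NDUFA6-AS1, NDUFB2-AS1 and NDUFC2-KCTD14) matched the prefixes but are not subunits, and they were counted apart. NDUFS8, NDUFC2 and UQCRH lay only on probe sets shared with another symbol, and they and SDHA were not analysed here.

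HEL, an erythroleukemia line, and SET2, a line from a leukemia that arose out of a myeloproliferative neoplasm, were each transduced with 1 of 3 lentiviral constructs and kept in puromycin for 96 h. The control cultures received the empty vector pLKO, the second set an shRNA against IGF1R, the insulin-like growth factor receptor, and the remaining set a miR-125a sponge, a transcript that offers decoy sites to that microRNA. All 6 cultures were thus transduced and selected, and each gave total RNA for 1 GeneChip Human Gene 2.0 ST array, so that every combination of line and construct is a single array. The study concerns AIRAPL, a proteostasis factor, and IGF-1 signalling in myeloid transformation. All values are log2 array values, so that a difference of 1 is a change of signal by a factor of 2. Array medians lay between 5.69 and 5.75, and the median gene level was 5.55. IGF1R itself showed no detectable drop where the label was IGF1R shRNA: its values were 8.63 (control), 8.56 (IGF1R shRNA) and 8.81 (sponge) in HEL and 8.32, 8.33 and 8.37 in SET2, a shRNA difference of -0.03 (SE 0.15, limma adjusted p = 0.973). Of 12 myeloid markers 11 were measured, and by their mean over the 6 arrays all 11 lay at or above the median gene level. The array means of the 11 lay between 8.58 and 9.12. GP9 was above that level in HEL (8.73, 7.84 and 8.55) and below it in SET2 (5.18, 4.98 and 5.35). Of the markers of other cell types, 2 of 5 lymphoid, 1 of 4 epithelial and 1 of 4 fibroblast genes reached that level by the same mean. The epithelial one, CDH1, was above it in SET2 (8.08, 7.80 and 8.04) and below it in HEL (4.49, 4.52 and 4.70). The part of these markers in the results was not tested.

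The respiratory chain sits in the inner mitochondrial membrane. Complex I (NADH dehydrogenase) and complex II (succinate dehydrogenase) pass electrons to ubiquinone, complex III hands them to cytochrome c, and complex IV (cytochrome c oxidase) reduces oxygen. The proton gradient that results drives ATP synthase, in which the membrane-bound Fo ring and the central stalk turn while a peripheral stalk holds the catalytic F1 head still. Most subunits are encoded in the nucleus and imported, and a few core subunits come from mitochondrial DNA. The 13 mitochondrially encoded subunits were not analysed here.

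Promoters of nuclear respiratory genes are known for sites of NRF1, of the ETS family and of YY1, so the promoter windows of the subunits were read for them. RefSeq promoter windows (GRCh38.p14, 250 bases before to 50 bases after the gene start) were found for 66 of the 81 subunits, and each motif was searched on both strands. The NRF1 motif, whose letters are the capitals in the NDUFA8 window below and read the same on both strands, was found in 4 of these 66 (6.06%) and in 1.36% of all 27305 promoters. The ETS motif CCGGAAG was found in 18 of 66 (27.3%) and in 10.7% of all promoters. The YY1 motif AAGATGGCG was found in 8 of 66 (12.1%) and in 1.85% of all promoters. The end of the ETS motif and the start of the YY1 motif share letters, so their matches can overlap, which they do not in SDHB. A match of letters is a description and not a binding site. The windows below belong to genes that differed between the lines: ATP5L with an ETS motif, SDHB with an ETS and a YY1 motif, NDUFS4 with a YY1 motif, NDUFA8 with an NRF1 motif, and COX6B2, the gene with the largest difference and none of the 3 motifs. Each is written 5′ to 3′ on the strand of the gene, with the motif match in capitals.
ATP5L, chr11:118401356-118401655, plus strand: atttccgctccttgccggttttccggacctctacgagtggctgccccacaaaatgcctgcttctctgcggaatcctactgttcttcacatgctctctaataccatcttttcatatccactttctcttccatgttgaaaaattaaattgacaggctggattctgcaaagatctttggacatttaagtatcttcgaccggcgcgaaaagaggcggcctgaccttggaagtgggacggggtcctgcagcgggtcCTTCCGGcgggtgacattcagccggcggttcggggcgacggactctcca
SDHB, chr1:17053983-17054282, minus strand: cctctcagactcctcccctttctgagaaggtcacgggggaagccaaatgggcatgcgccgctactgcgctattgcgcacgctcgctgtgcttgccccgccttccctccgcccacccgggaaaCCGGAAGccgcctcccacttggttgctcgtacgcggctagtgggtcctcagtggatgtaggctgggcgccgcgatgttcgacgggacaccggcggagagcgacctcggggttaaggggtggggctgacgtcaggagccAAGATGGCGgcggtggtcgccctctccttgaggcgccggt
NDUFS4, chr5:53560389-53560688, plus strand: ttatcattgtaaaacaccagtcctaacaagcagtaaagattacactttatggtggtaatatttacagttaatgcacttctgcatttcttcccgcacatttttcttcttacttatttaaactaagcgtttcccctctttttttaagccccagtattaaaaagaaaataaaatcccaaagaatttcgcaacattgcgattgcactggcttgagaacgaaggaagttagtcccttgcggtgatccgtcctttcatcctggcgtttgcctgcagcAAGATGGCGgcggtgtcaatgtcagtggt
NDUFA8, chr9:122159730-122160029, minus strand: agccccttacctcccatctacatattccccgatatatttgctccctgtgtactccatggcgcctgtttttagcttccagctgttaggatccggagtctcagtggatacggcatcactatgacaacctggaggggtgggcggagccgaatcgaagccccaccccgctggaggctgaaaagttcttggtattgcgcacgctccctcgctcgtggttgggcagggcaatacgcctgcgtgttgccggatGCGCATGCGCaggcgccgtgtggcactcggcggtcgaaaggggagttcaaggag
COX6B2, chr19:55354670-55354969, minus strand: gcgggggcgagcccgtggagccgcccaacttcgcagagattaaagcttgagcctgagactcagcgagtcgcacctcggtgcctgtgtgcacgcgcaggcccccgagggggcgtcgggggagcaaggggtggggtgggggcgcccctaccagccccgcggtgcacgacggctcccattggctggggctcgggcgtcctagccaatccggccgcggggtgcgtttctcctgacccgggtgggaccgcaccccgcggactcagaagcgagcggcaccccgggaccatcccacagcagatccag

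HEL and SET2 differed in 21 of the 81 subunits (limma, adjusted p under 0.05 over all 22320 genes), of which 16 were higher in HEL and 5 were higher in SET2. The 21 make up 25.9% of the subunits, and the background was 24.5% of all genes called. The share called was therefore near that of all genes. Among genes at or above the median level, 19 of 68 subunits (27.9%) were called in either direction, below a background of 36.8%. At an unadjusted p under 0.05 there were 30 of 81 subunits, where all genes gave 34.8%. By direction, 19.8% of the subunits were called higher in HEL against 11.6% of all genes, and 6.17% were called lower against 13.0% of all genes. No subunit was filtered out for a low level. Among genes at or above the median level, 15 of 68 subunits (22.1%) were higher in HEL and 4 (5.88%) lower, where the background was 16.9% and 19.8%. The median difference of the 81 subunits, HEL minus SET2, was 0.13, against 0.01 for all genes. It was 0.11 in the control arrays, 0.14 in the IGF1R shRNA arrays and 0.09 in the sponge arrays, and 0.07 when each gene was read from its brightest probe set. The 3 arrays of a line each carry another construct, so the p-values cover the spread between these cultures of 1 line each and nothing wider. As the arrays measured bulk RNA, fewer cells with a transcript and less of it per cell cannot be told apart.

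The calls by complex stand beside a background of 11.6% of all genes higher in HEL and 13.0% lower. Among genes at or above the median level that background was 16.9% and 19.8%. ATP synthase had 6 members higher in HEL (37.5%) and 1 lower (6.25%) among 16. Of its 16 differences 13 were above 0, with a median of 0.22. Complex III had 3 of 9 higher and none lower, with a median of 0.24. Complex II had 1 of 3 higher, with a median of 0.24. Complex I had 4 of 34 higher (11.8%) and 3 lower (8.82%), with a median of 0.07. Complex IV had 2 of 19 higher (10.5%) and 1 lower (5.26%), with a median of 0.08. In complexes I and IV the share called higher was near that of all genes. Whether the complexes differ from each other was not tested. The values of all 6 arrays did not overlap between the lines for 25 subunits higher in HEL (background 19.2% of all genes) and for 16 lower (background 20.0%). Among genes at or above the median level, 23 of 68 subunits did not overlap with HEL higher (background 24.8%) and 12 with HEL lower (background 28.3%). The 5 members that are not subunits held no call and lay between -0.13 and -0.003.

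**Figure D1:**
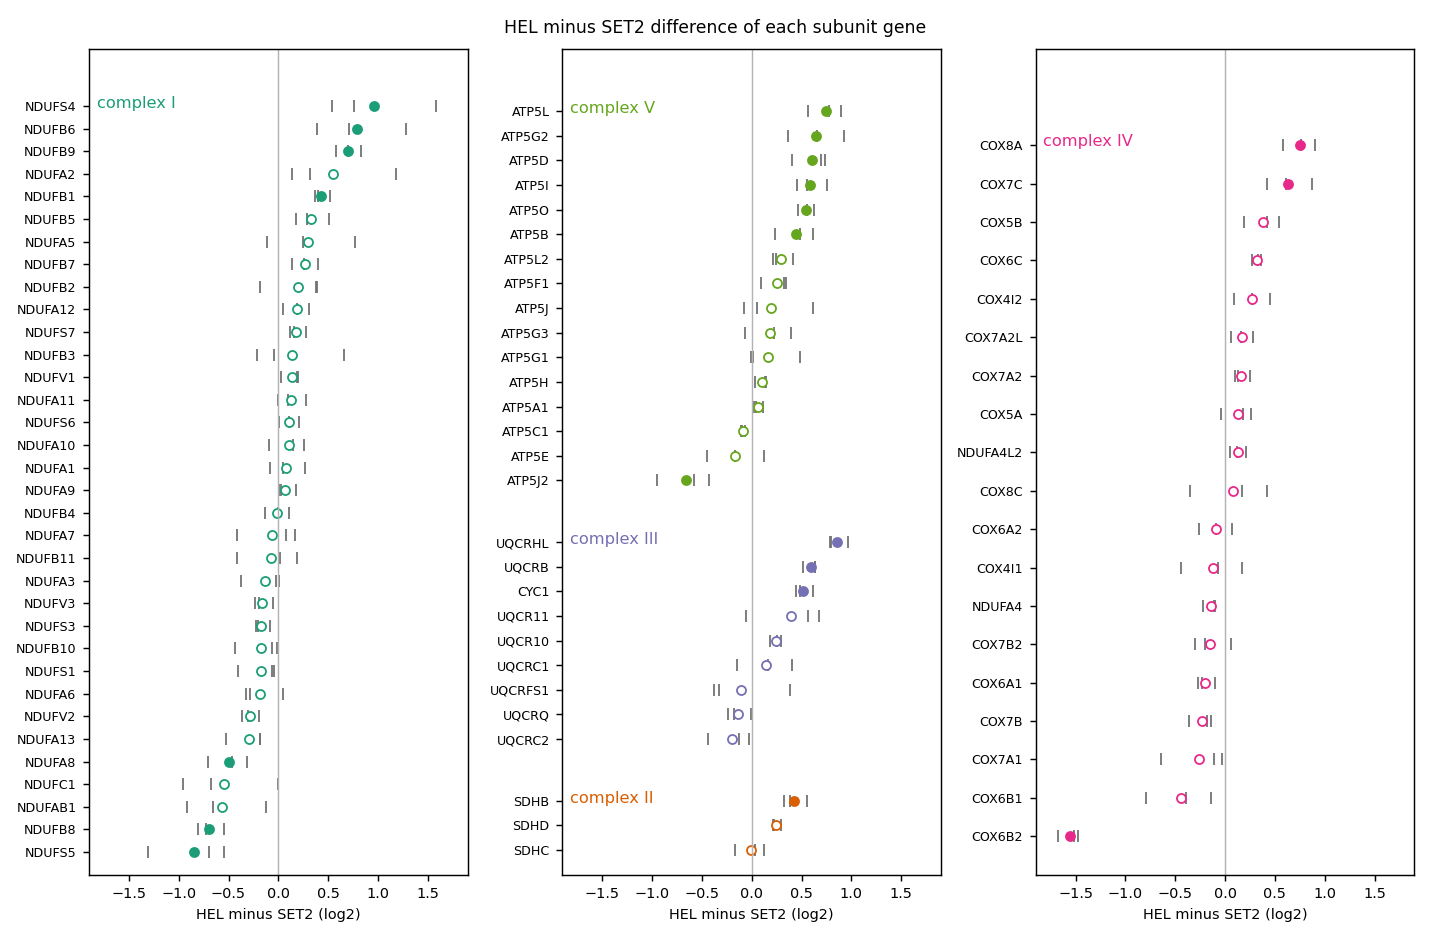
Difference HEL minus SET2 (log2, horizontal axis) of each of the 81 subunit genes, ordered within its complex. Circles are the limma estimates over 3 arrays a line, filled where the adjusted p is under 0.05, and the 3 grey ticks are the differences within the control, IGF1R shRNA and sponge arrays. COX6B2 at -1.56 lies farthest to the left and NDUFS4 at 0.96 farthest to the right.

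The widest difference belonged to COX6B2, an isoform of the small cytochrome c oxidase subunit 6B that is best known from testis. Its values were 4.20 (control), 4.26 (IGF1R shRNA) and 4.24 (sponge) in HEL and 5.87, 5.77 and 5.72 in SET2. The lines were far apart under each construct (HEL minus SET2 -1.56, SE 0.12, adjusted p = 0.00023). The HEL values lie below the median gene level of 5.55, where no call against background was possible, so no fold is given. All 6 probe sets of the gene were lower in HEL, from -3.43 to -0.12, but the brightest of them differed by only -0.26 (adjusted p = 0.423, in a range from 0.0002 to 0.423 over the alternatives). COX6B1, the widely expressed isoform, differed in the same direction without passing the threshold (-0.44, SE 0.15, adjusted p = 0.0852).

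**Figure D2:**
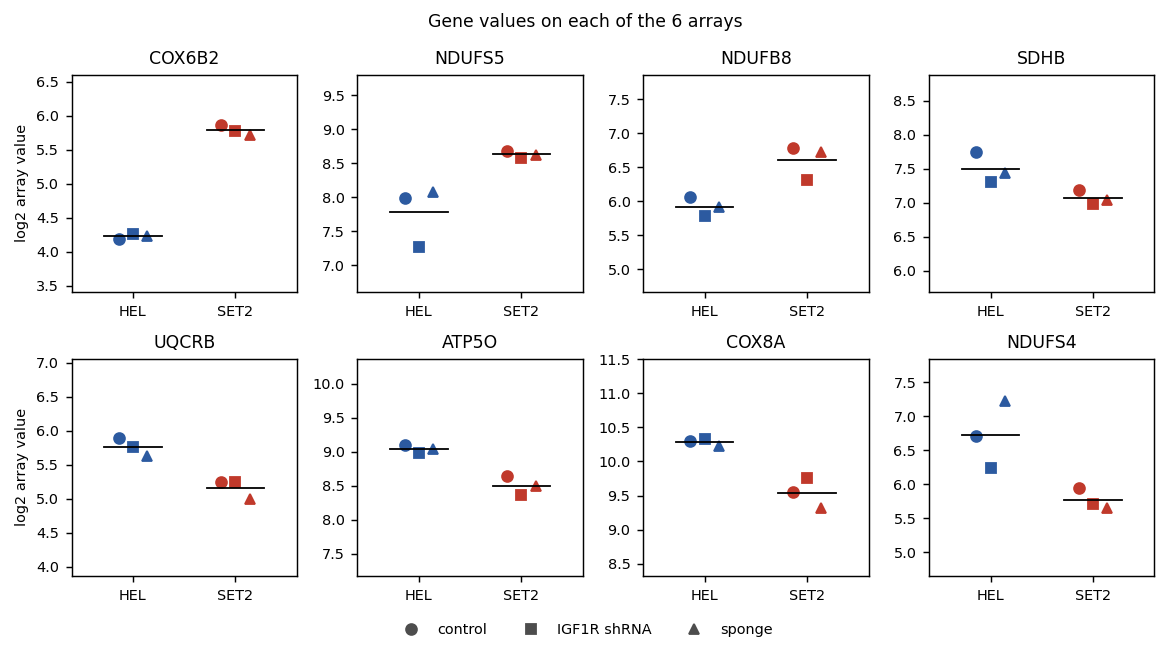
Log2 array values (vertical axis) of 8 subunit genes in HEL (blue) and SET2 (red), with 1 point per array: circles for control, squares for IGF1R shRNA, triangles for sponge, and a bar at the mean of 3 arrays. Every panel spans the same range of log2 units around its own mean, and in all 8 panels the 3 HEL points lie on 1 side of the 3 SET2 points.

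Complex I held calls in both directions. NDUFS4, an accessory subunit of the electron input arm, had values of 6.71, 6.23 and 7.23 in HEL (control, IGF1R shRNA, sponge) and 5.95, 5.70 and 5.65 in SET2. All HEL arrays were above all SET2 arrays, though the HEL arrays themselves spread over a whole log2 unit (0.96, SE 0.21, adjusted p = 0.0163). All 11 of its probe sets were higher in HEL. NDUFB6, a subunit of the membrane arm, stood at 7.67, 8.31 and 7.82 in HEL and 7.29, 7.03 and 7.12 in SET2 (0.79, SE 0.18, adjusted p = 0.0213). NDUFB9, also of the membrane arm, stood at 7.91, 8.05 and 7.86 in HEL and 7.08, 7.35 and 7.28 in SET2 (0.70, SE 0.12, adjusted p = 0.00682). Of its 14 probe sets 13 were higher in HEL and 1 was lower, at -2.94, and the median of the 14 differences was 0.91. When the gene instead took the median probe set level on each array, its difference turned to -0.16. The fourth gene called higher was NDUFB1, again of the membrane arm, with a difference of 0.43 (adjusted p = 0.0372).

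The 3 complex I genes lower in HEL come from different modules. NDUFS5, a small accessory subunit on the intermembrane space side, had values of 8.0, 7.27 and 8.08 in HEL and 8.69, 8.58 and 8.62 in SET2. The SET2 arrays agreed closely and the HEL array labelled IGF1R shRNA was the lowest of the 6 (-0.85, SE 0.17, adjusted p = 0.0127). Its 4 probe sets were alike, from -1.02 to -0.75. NDUFB8, a membrane arm subunit, stood at 6.05, 5.77 and 5.91 in HEL and 6.78, 6.32 and 6.72 in SET2 (-0.69, SE 0.12, adjusted p = 0.00746), and all 11 of its probe sets were lower in HEL. NDUFA8 stood at 6.77, 6.45 and 6.67 in HEL and 7.08, 7.15 and 7.14 in SET2, the smallest of the 5 differences in this direction (-0.49, SE 0.13, adjusted p = 0.0344). Just outside the threshold lay NDUFAB1, the mitochondrial acyl carrier protein, with -0.56 (SE 0.17, adjusted p = 0.0545).

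In complex II, SDHB, the iron-sulfur subunit, had values of 7.75, 7.31 and 7.43 in HEL and 7.19, 6.98 and 7.05 in SET2. All 3 HEL arrays lay above the SET2 arrays, and the gene passed narrowly (0.42, SE 0.12, adjusted p = 0.0443). The membrane anchors SDHC and SDHD did not pass, at -0.005 (SE 0.12, 95% interval -0.30 to 0.29, adjusted p = 0.985) and 0.24 (SE 0.12, 95% interval -0.03 to 0.52, adjusted p = 0.190).

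In complex III, UQCRHL stood at 9.90, 9.67 and 9.71 in HEL and 9.11, 8.70 and 8.91 in SET2 (0.85, SE 0.12, adjusted p = 0.00279). UQCRHL is a near-identical copy of the hinge protein gene UQCRH and rests on 1 probe set, so signal from either gene cannot be told apart. UQCRB, which takes part in ubiquinone binding, stood at 5.89, 5.76 and 5.63 in HEL and 5.25, 5.24 and 5.00 in SET2 (0.60, SE 0.12, adjusted p = 0.0111). Its SET2 values all lay below the median gene level, where no call against background was possible. All 15 of its probe sets were higher in HEL, by 0.04 to 1.58. Only 1 of the 15 reached a mean log2 level of 7, and that probe set differed by 0.91. CYC1, cytochrome c1, stood at 8.28, 8.14 and 8.27 in HEL and 7.84, 7.66 and 7.66 in SET2 (0.52, SE 0.12, adjusted p = 0.0201), with all 11 probe sets higher in HEL. UQCRFS1, the Rieske iron-sulfur protein, did not pass (-0.11, SE 0.18, 95% interval -0.53 to 0.31, adjusted p = 0.729).

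In complex IV, COX8A, the ubiquitous form of the smallest subunit, had values of 10.30, 10.33 and 10.22 in HEL and 9.54, 9.75 and 9.32 in SET2. The lines were apart under each construct (0.75, SE 0.13, adjusted p = 0.00603) and its 4 probe sets gave 0.64 to 0.92. COX7C, a small structural subunit, stood at 8.09, 8.25 and 8.06 in HEL and 7.67, 7.37 and 7.44 in SET2 (0.64, SE 0.14, adjusted p = 0.0154). Apart from COX8A and COX6B2, no isoform of the paired complex IV subunits passed. The general isoforms COX4I1 and COX7A2 differed by -0.12 (SE 0.15) and 0.16 (SE 0.12), and the tissue-restricted COX4I2, COX7A1 and COX8C by 0.27 (SE 0.13), -0.26 (SE 0.15) and 0.08 (SE 0.17). NDUFA4, once assigned to complex I and now counted with complex IV, differed by -0.14 (SE 0.12), and its paralogue NDUFA4L2 by 0.13 (SE 0.12).

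ATP synthase held more genes called higher in HEL than any of the other complexes. The peripheral stalk gene ATP5O (now ATP5PO), which encodes the subunit that confers oligomycin sensitivity, stood at 9.10, 8.98 and 9.04 in HEL and 8.64, 8.36 and 8.49 in SET2 (0.55, SE 0.12, adjusted p = 0.0156). The Fo genes ATP5L (ATP5MG) and ATP5I (ATP5ME) encode subunits g and e, which help ATP synthase form dimers. ATP5L stood at 6.81, 6.92 and 6.41 in HEL and 5.92, 6.15 and 5.85 in SET2 (0.74, SE 0.13, adjusted p = 0.00636). ATP5I stood at 8.03, 7.81 and 7.58 in HEL and 7.28, 7.26 and 7.12 in SET2 (0.59, SE 0.12, adjusted p = 0.0149). For both genes the lowest HEL array was the sponge array, and it still exceeded every SET2 array.

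Of the 3 genes for the identical c-ring subunit, only ATP5G2 (ATP5MC2) passed, with values of 7.32, 7.26 and 7.50 in HEL and 6.67, 6.90 and 6.57 in SET2 (0.65, SE 0.14, adjusted p = 0.0180). ATP5G1 differed by 0.16 (SE 0.14) and ATP5G3 by 0.18 (SE 0.14), and the differences between the 3 genes were not tested. Among the F1 genes, ATP5D (ATP5F1D), the delta subunit, stood at 8.52, 8.83 and 8.67 in HEL and 8.12, 8.10 and 7.97 in SET2 (0.61, SE 0.13, adjusted p = 0.0145). ATP5B (ATP5F1B), the catalytic beta subunit, stood at 11.40, 11.50 and 11.52 in HEL and 11.17, 10.89 and 11.03 in SET2 (0.44, SE 0.13, adjusted p = 0.0483), with all 17 probe sets higher in HEL. The alpha subunit gene ATP5A1 and the gamma subunit gene ATP5C1 did not pass, at 0.06 (SE 0.12, 95% interval -0.21 to 0.33) and -0.09 (SE 0.11, 95% interval -0.36 to 0.18). The exception in direction was ATP5J2 (ATP5MF), subunit f, at 8.78, 9.10 and 9.09 in HEL and 9.73, 9.68 and 9.52 in SET2 (-0.66, SE 0.14, adjusted p = 0.0166). Of its 4 probe sets the dimmest, at a mean level of 5.23, differed by -1.88. The others, at mean levels of 9.01 to 11.75, differed by only -0.35 to -0.18.

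**Figure D3:**
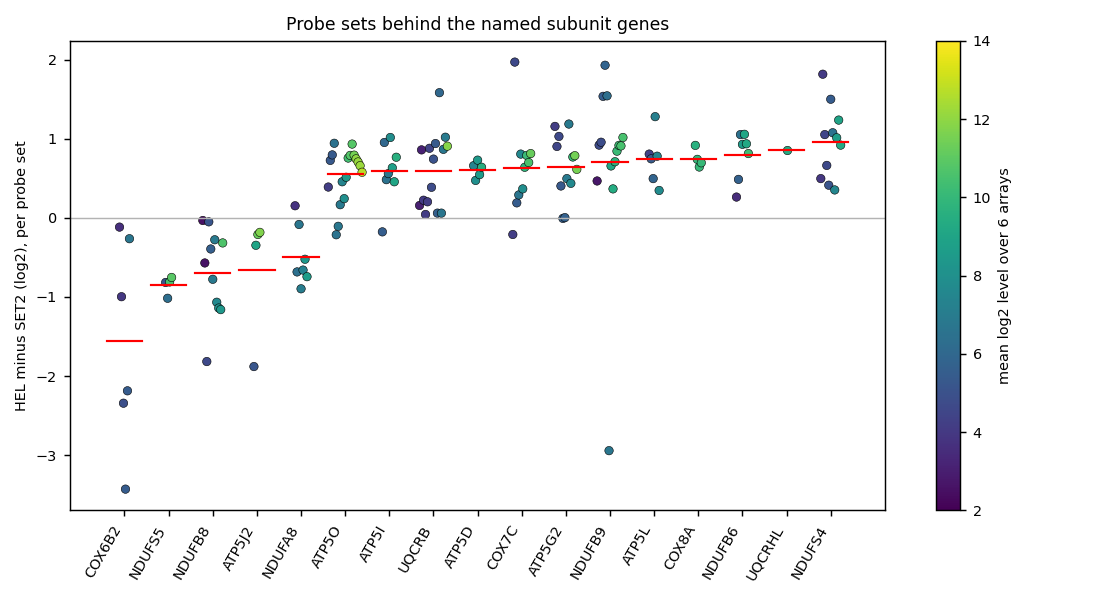
Difference HEL minus SET2 (log2, vertical axis) of each probe set of the 17 genes named by size of difference, coloured by its mean log2 level over 6 arrays. The red bar is the gene value, the mean of the probe sets. The probe sets of NDUFS5 lie together, while those of COX6B2 spread from -3.43 to -0.12 and NDUFB9 has 1 probe set at -2.94 below 13 positive ones.

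The number of calls depended on how probe sets were joined and on which arrays were used. When each gene took the median of its probe sets 8 subunits were called (17.0% of all genes under the same setting), and with the brightest probe set 6 (11.7% of all genes). Without either control array 8 were called (14.4% of all genes), and without either sponge array 6 (12.9% of all genes). Leaving out 1 array also takes the other array of its construct out of the line difference. Either array of a pair therefore gives the same count, and fewer residual degrees of freedom remain. UQCRHL was the 1 gene of the 17 named by size that kept its call under every alternative tried, but its single probe set leaves its values as they are under each way of joining probe sets. NDUFS5 kept its call in 11 of 12, and COX6B2 in 9 of 10. NDUFS4, COX8A, ATP5L, NDUFB9, COX7C and ATP5D kept theirs in 9 of 12, and NDUFB6 in 8 of 12. The call was held less often by ATP5J2 and ATP5I (7 of 12), NDUFB8, ATP5G2 and ATP5O (6 of 12), UQCRB (6 of 11) and NDUFA8 (4 of 12).

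Genes beside the subunits on the chromosome were read for the same contrast. Of the 16 subunits higher in HEL, 13 had a positive median difference among their 20 nearest measured genes (10 on either side), and of the 5 lower, 3 had a negative one. These neighbour medians were small, from -0.27 beside ATP5J2 to 0.33 beside UQCRB, where 17 of 20 neighbours were positive and 8 were called higher. Each of the 16 higher subunits exceeded its neighbour median, which their selection for a large difference made likely beforehand, so nothing is drawn from it. The counts of neighbour signs were not set against those of the subunits without a call. Beside COX6B2 and NDUFS5 the neighbours ran the other way, with medians of 0.11 and 0.21. UQCRB, CYC1 and NDUFB9 lie on chromosome 8, where 4 of 4 members were positive. The other genes of that chromosome had a median of 0.07 and 16.6% were called higher. Whether copy number differs between the lines at these places was not tested.

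The promoter motifs printed above were set beside the calls. Only 13 of the 21 called subunits had a promoter window, and the others are in none of the groups below. The counts stand beside a background of 11.6% of all genes higher in HEL and 13.0% lower. Among the 18 subunits with an ETS motif, 4 were higher in HEL (ATP5I, ATP5L, COX8A and SDHB) and none was lower, with a median of 0.15. Among the 48 without it, 6 were higher and 3 lower, with a median of 0.09. The 8 with a YY1 motif held 2 higher genes and none lower, and the 4 with an NRF1 motif held 1 lower gene, NDUFA8. Whether these groups differ was not tested.

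Genes that build or serve the complexes were called in both directions between the lines. The counts of these lists stand beside a background of 11.6% of all genes higher in HEL and 13.0% lower. Of 16 complex I assembly factors, 5 were higher in HEL and 2 lower. They included FOXRED1, at 7.90, 7.80 and 8.01 in HEL and 6.80, 5.94 and 6.70 in SET2 (1.42, SE 0.17), and NDUFAF4, at 7.16, 6.54 and 7.14 in HEL and 6.06, 5.43 and 5.58 in SET2 (1.26, SE 0.14). Both exceeded every subunit called higher in size. Of 6 complex III assembly factors, UQCC1 (0.83) and LYRM7 (0.70) were higher and none was lower. Of 21 complex IV assembly factors, 1 was higher and 4 were lower: COX20 (-1.03), FASTKD2 (-0.78), COX19 (-0.69) and COX18 (-0.65). None of the 4 complex II or 3 complex V assembly factors passed. The medians of these lists were 0.10 (complex I), -0.15 (II), 0.04 (III), -0.05 (IV) and 0.20 (V). The shares called in either direction were 43.8% (complex I), 33.3% (III) and 23.8% (IV), beside 24.5% of all genes.

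Among 16 regulators of mitochondrial biogenesis, 3 were higher in HEL (background 11.6% of all genes) and none was lower (background 13.0%). They were the coactivator PPARGC1B (0.87, SE 0.12), the mitochondrial RNA polymerase POLRMT (0.72, SE 0.14) and the coactivator PPRC1 (0.45), in a list with a median of 0.06. Among 10 genes for cytochrome c and carriers, the outer membrane channel VDAC1 (0.79) and the adenine nucleotide carrier SLC25A6 (0.73) were higher and ATP5IF1, the inhibitor of ATP synthase, was lower (-0.45), in a list with a median of 0.08. Of 15 tricarboxylic acid cycle and pyruvate dehydrogenase genes, IDH3A was higher (0.47) and SUCLG2 (-0.63), DLST (-0.54), PDHB (-0.45) and OGDH (-0.44) were lower, with a list median of -0.24. The shares called in either direction were 18.8% (biogenesis), 30.0% (carriers) and 33.3% (tricarboxylic acid cycle), beside 24.5% of all genes.

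The shRNA directed at IGF1R was compared with the control within the lines. No subunit passed (0 of 81), and the background was 0.0% of all genes called, with no gene of 22320 past the threshold. The smallest adjusted p among the subunits was 0.623. At an unadjusted p under 0.05 there were 2 of 81 subunits (ATP5E and NDUFB8), where all genes gave 7.42%. The median difference was -0.07 (-0.03 in HEL, -0.10 in SET2), against -0.01 for all genes, and it was -0.015 without the SET2 array labelled IGF1R shRNA. In both lines at once, 12 subunits were higher than control (14.8%, background 22.5%) and 32 lower (39.5%, background 27.0%). Among genes at or above the median level, 11 of 68 subunits (16.2%) were higher in both lines and 27 (39.7%) lower. The background there was 18.3% and 31.7%. With 1 array per line and construct, these counts describe the 4 arrays compared.

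By role, the NDUFS genes, most of which encode iron-sulfur or neighbouring subunits of the electron arm of complex I, had a median of -0.25. Of the 6 members 5 were lower in both lines (background 27.0% of all genes). NDUFS1, the largest subunit of complex I, stood at 8.82 in the HEL control and 8.31 under the shRNA, and at 8.89 and 8.72 in SET2 (-0.34, SE 0.16, adjusted p = 0.693). NDUFS5 had the most negative difference of all 81 subunits, at 8.0 in the HEL control and 7.27 under the shRNA, and at 8.69 and 8.58 in SET2 (-0.42, SE 0.21, adjusted p = 0.706). Most of that difference came from HEL. NDUFS4 gave -0.36 (SE 0.25, adjusted p = 0.767). NDUFV1, which binds NADH, stood at 7.67 and 7.34 in HEL and at 7.47 and 7.16 in SET2 (-0.32, SE 0.14, adjusted p = 0.682). The difference was nearly the same in both lines, and 18 of its 21 probe sets were lower. NDUFB8 differed by -0.37 (SE 0.15), NDUFB10 by -0.31 (SE 0.17) and NDUFA9 by -0.25 (SE 0.14), all in the membrane arm or beside it.

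In complex III 6 of 9 members were lower in both lines (background 27.0% of all genes), with a median of -0.18. UQCRC1, a core protein of that complex, stood at 7.89 in the HEL control and 7.33 under the shRNA, and at 7.72 and 7.48 in SET2 (-0.40, SE 0.18, adjusted p = 0.680), with all 21 probe sets lower. The second core protein, UQCRC2, stood at 10.39 and 9.83 in HEL and at 10.42 and 10.27 in SET2 (-0.35, SE 0.16, adjusted p = 0.686), with all 16 probe sets lower. UQCR10 gave -0.29 (SE 0.14) and UQCRHL -0.32 (SE 0.15). No one of these passed, and 95% intervals such as -0.82 to 0.02 for UQCRC1 hold 0.

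In the other direction, ATP5H (ATP5PD), subunit d of the stalk, stood at 8.66 in the HEL control and 8.93 under the shRNA, and at 8.52 and 8.79 in SET2 (0.27, SE 0.14, adjusted p = 0.708). COX7A2 gave 0.30 (SE 0.14) and turned to -0.13 when its probe sets were joined by their median. NDUFB9 (0.20), ATP5L (0.17), NDUFB1 (0.15), NDUFA12 (0.13), COX7B (0.13) and NDUFV3 (0.11) followed, none of them past the threshold. NDUFB9, ATP5L, COX7B and NDUFV3 turned negative when read from their brightest probe set. ATP5E (ATP5F1E), the epsilon subunit of F1, was singled out after its values were seen: it stood at 4.78 in the HEL control and 5.64 under the shRNA, and at 5.23 and 5.51 in SET2 (0.57, SE 0.18, adjusted p = 0.623). Its 4 probe sets all had mean levels under 7, and the brightest reached 6.22.

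**Figure D4:**
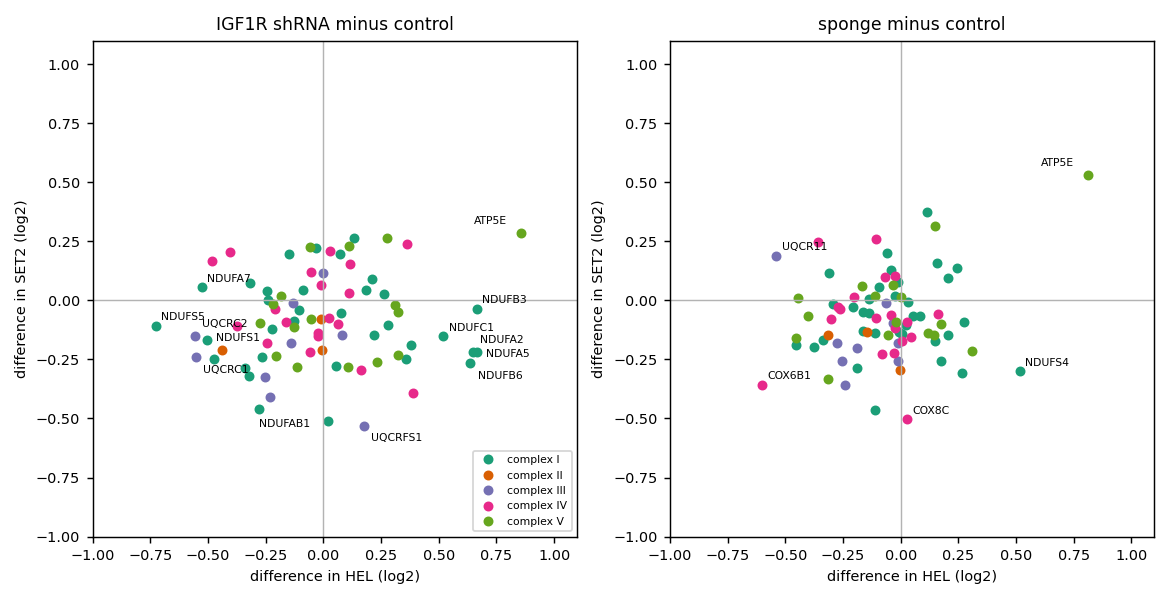
Difference from control in HEL (horizontal axis, log2) and in SET2 (vertical axis, log2) of the 81 subunit genes, for the IGF1R shRNA arrays (left) and the sponge arrays (right), coloured by complex. Points at lower left were lower in both lines (32 on the left, 37 on the right), and ATP5E lies apart at upper right in both panels, which share their control arrays.

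The tricarboxylic acid cycle and pyruvate dehydrogenase genes, which feed the chain with NADH, are given beside it. Under the shRNA their median was -0.27 (-0.24 in HEL, -0.27 in SET2). In both lines 10 of 15 were lower (66.7%, background 27.0% of all genes) and none was higher (background 22.5%). DLAT (-0.47, SE 0.17), IDH3B (-0.42, SE 0.14) and PDHB (-0.42, SE 0.16) had the most negative differences. None of the 15 passed, and the smallest adjusted p of the list was 0.634. Under the sponge the median of the same list was -0.03. The lists of assembly factors, carriers and biogenesis regulators held no call for either construct. Under the shRNA their medians ran from -0.19 (complex III assembly) to -0.01 (complex V assembly), and under the sponge from -0.08 to 0.01.

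The sponge was compared with the same control arrays, so the values for both constructs share their baseline and are not independent. No subunit passed (0 of 81, background 0.0% of all genes), with 2 of 81 at an unadjusted p under 0.05 where all genes gave 1.85%. The median was -0.07 (-0.04 in HEL, -0.09 in SET2) against -0.02 for all genes. It was -0.16 with the brightest probe sets, -0.13 with probe sets of log2 level 7 or more, and -0.10 without the HEL control array. In both lines 6 subunits were higher (7.41%, background 21.0%) and 37 lower (45.7%, background 29.6%), and among genes at or above the median level the background was 20.0% and 32.5%. In complex III 8 of 9 members were lower in both lines, with a median of -0.18.

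COX6B1 had the most negative difference under the sponge. It stood at 7.95 in the HEL control and 7.35 in the HEL sponge array, and at 8.10 and 7.74 in SET2 (-0.48, SE 0.19, 95% interval -0.93 to -0.03, adjusted p = 1.0). Its probe sets ran from -1.87 to 0.00. UQCR10, a small subunit of complex III, stood at 8.63 and 8.39 in HEL and at 8.45 and 8.09 in SET2 (-0.30, SE 0.14), and all 3 of its probe sets were lower. ATP5G1 (-0.32, SE 0.18), NDUFAB1 (-0.32, SE 0.21), NDUFA2 (-0.29, SE 0.26), NDUFS6 (-0.24, SE 0.15), UQCRC2 (-0.23, SE 0.16) and UQCRHL (-0.20, SE 0.15) followed, of which NDUFA2 lost its sign without the HEL sponge array. Of the genes at or above the median level, 4 were higher in both lines: NDUFA12 (0.24), ATP5L2 (0.23), NDUFB5 (0.19) and NDUFV2 (0.15). NDUFA12 and NDUFB5 turned negative when read from their brightest probe set. ATP5E, the other gene under an unadjusted p of 0.05 beside COX6B1, stood at 5.59 in the HEL sponge array and 5.76 in the SET2 sponge array (0.67, SE 0.18, adjusted p = 1.0).

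**Figure D5:**
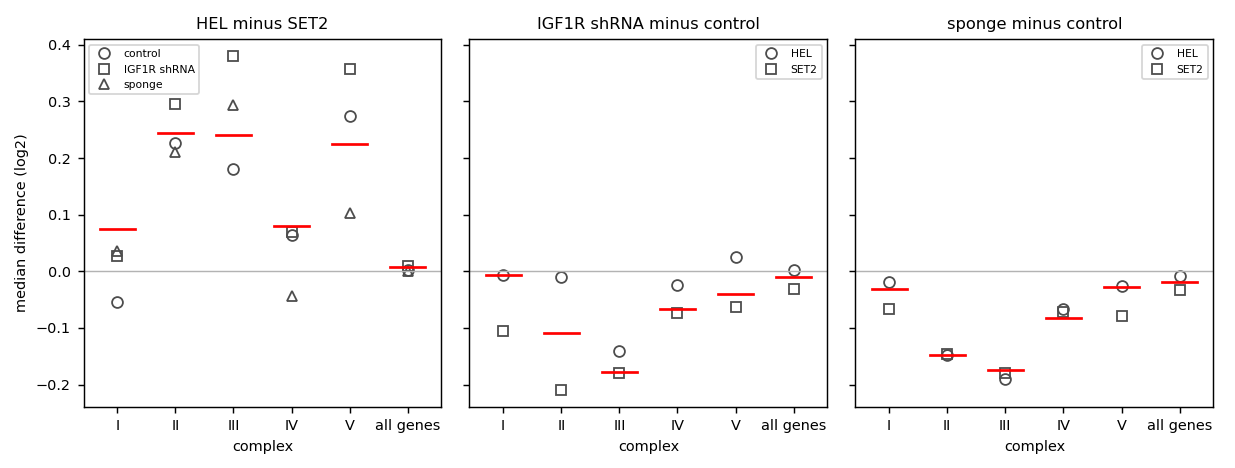
Median difference (log2, vertical axis) over the subunits of each complex and over all genes, for HEL minus SET2 (left), IGF1R shRNA minus control (centre) and sponge minus control (right). Red bars are medians of the limma estimates, and open symbols are medians within a construct (left) or within a line (centre and right). Complexes III and V lie highest on the left at 0.24 and 0.22, beside complex II with 3 genes, and complex III lies at -0.18 in the other 2 panels.

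Set directly against each other, the sponge and the IGF1R shRNA arrays gave no call (0 of 81, background 0.0% of all genes), and 4 of 81 subunits had an unadjusted p under 0.05 where all genes gave 6.85%. NDUFV1 was 0.36 higher under the sponge (SE 0.14) and COX7A2 0.39 lower (difference -0.39, SE 0.14), both with an adjusted p of 0.725. ATP5L (-0.41, SE 0.15) and NDUFB3 (-0.57, SE 0.23) were the other genes under that unadjusted threshold. NDUFB3 stood at 7.62 in the HEL array labelled IGF1R shRNA and between 6.62 and 7.0 on the other arrays. Without the SET2 array of that label NDUFB3 (-0.96, adjusted p = 0.0380, in a range from 0.0380 to 1.0 over the alternatives) and NDUFA2 (-0.98) were called, with HEL then the only line behind the shRNA level. The median over the subunits was -0.03, against -0.01 for all genes, and it turned to 0.02 without the HEL array labelled IGF1R shRNA and to 0.01 without the SET2 sponge array. In both lines 22 subunits were higher under the sponge (background 25.1%) and 26 lower (background 26.1%). Of the 68 subunits at or above the median level 21 were higher (background 29.1%) and 22 lower (background 22.4%).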

How the data were processed

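RNA was measured on 6 GeneChip Human Gene 2.0 ST arrays. The log2 values per probe set were made by the authors in Expression Console from Affymetrix before they were deposited, per the submitters' processing notes, and the scale was read from the values (1.61 to 13.99). Their summarisation, normalisation and build: not given in the sources used here. Scanner files were not used, so no probe set was called present or absent, and the number of arrays limits precision.

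Of 352859 probe sets, the 259224 with a single symbol were averaged per symbol into 22320 genes; members had a median of 8.5 probe sets (1 to 23), and 82 shared ones were left out. limma 3.58.1 (R 4.3.3; lmFit, eBayes) was fitted on all arrays with treatment and line as terms, which left 2 residual and 4.78 prior degrees of freedom; p-values are two-sided, Benjamini-Hochberg adjusted over all genes. Replicate numbers stand for lines, and deviations of arrays of 1 line correlated at 0.75 to 0.88 (3 pairs). Genes named are the 12 largest called differences per direction between the lines and the 8 per direction with the largest smaller-of-lines change for each treatment contrast (same sign, level at or above the median), besides complex II, CYC1, UQCRFS1 and the paralogous isoforms. NDUFS1, NDUFS5, UQCRC2, NDUFAB1, NDUFA2, NDUFB1, NDUFB3, ATP5A1, ATP5B, ATP5C1 and ATP5E were also named where the rule did not, after their values were seen. The fit was tested on simulated data. Members and lists were chosen with earlier results of these data known. Alternatives changed probe set summary, filter, normalisation, fit and arrays. Plots used matplotlib 3.10.9.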

Additional observations from a re-analysis of the deposited data

Results flagged for a closer look

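Several subunits had differences of opposite sign in the lines under the same construct, by at least 0.25 in each line; with 1 array per line and construct, none of these differences was tested. In the IGF1R shRNA arrays against control, NDUFB6 differed by 0.64 in HEL and by -0.26 in SET2, NDUFB11 by 0.36 and -0.25, and COX8C, a dim gene, by 0.39 and -0.39. In the sponge arrays against control, NDUFS4 differed by 0.52 in HEL and by -0.30 in SET2, and NDUFB2 by 0.27 and -0.31. Between the sponge and IGF1R shRNA arrays, ATP5J differed by -0.43 in HEL and by 0.25 in SET2, and NDUFAB1 by -0.47 and 0.32.

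Group medians of opposite sign in the lines, by at least 0.1 in each, were also found and likewise not tested. Under the IGF1R shRNA the NDUFB genes had a median of 0.21 in HEL and -0.19 in SET2, the F1 genes of ATP synthase 0.10 and -0.11, and the 5 members that are not subunits 0.13 and -0.19. Under the sponge those 5 members had medians of 0.11 and -0.17.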

How the results depend on the processing

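The count of 21 subunits called between HEL and SET2 became 8 when a gene took the median of its probe sets (17.0% of all genes called) and 6 with the brightest probe set (11.7%), and ranged from 6 to 20 when 1 array was left out. Its median of 0.13 became 0.0733 with the brightest probe set, 0.19 with probe sets of log2 level 7 or more (an alternative chosen after seeing the data) and 0.15 with quantile normalization, and ranged from 0.0972 to 0.109 without 1 array. For the IGF1R shRNA against control the median ranged from -0.0885 to -0.015 without 1 array. For the sponge against control it was -0.16 with the brightest probe set and -0.13 with probe sets of level 7 or more, and ranged from -0.101 to -0.0575. For the sponge against the IGF1R shRNA it was -0.02 with probe set medians, -0.075 with the brightest, -0.0378 with those of level 7 or more, -0.0428 without dim genes, -0.0461 with quantile normalization and -0.0564 to 0.0192 without 1 array, where the count of calls ranged from 0 to 2. Without the replicate block, which stands for the cell line, the treatment contrasts held 0, 0 and 0 calls. The fit with the block held no call either, so these counts cannot show whether the pairing matters. Single genes reversed: under the IGF1R shRNA COX7A2 (-0.13) and NDUFV3 (-0.125) with probe set medians, and NDUFB9 (-0.025), COX7B (-0.135), ATP5L (-0.165) and NDUFV3 (-0.045) with the brightest, and COX7B (-0.0633) at level 7 or more; under the sponge NDUFB5 (-0.10) and NDUFA12 (-0.14) with the brightest, NDUFA12 (-0.137) at level 7 or more, and NDUFA2 without the HEL sponge array (0.0193, in a range from -0.592 over single arrays left out); between the lines NDUFB9 (-0.16) with the median. The cause was not tested. Genes with no probe set at level 7, COX6B2 among them, could not be fitted there, and levels near the low end of the scale have no call against background.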
